A study of Mus musculus with 19 samples.

Results

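Bnip3, Bnip3l, Fam162a and Ndrg1, 4 of the 9834 genes with a single symbol on the array, were followed in FDCPmix cells after tamoxifen. They are hypoxia-linked genes of mitophagy, cell death and stress, and were selected on their array values and group means in the treated cells and at 3, 7, 12 and 23 h. Their levels are therefore a description without a test. FDCPmix is a haematopoietic progenitor line of the mouse that depends on interleukin-3, and tamoxifen is a ligand of the oestrogen receptor. On each of 19 arrays of the 2-colour type, RNA of treated cells, called own RNA below, was hybridised together with a reference RNA.

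The treated group (4 arrays) set treated cells, with no agent or time of their own in the labels, against non-treated FDCPmix cells. The time course followed cells for 3, 7, 12 or 23 h of tamoxifen, with n = 4 for each of the first 3 times and n = 3 for 23 h. Its reference was treated cells at 0 h throughout. Replicate 2 at 23 h was not analysed here. Replicates 1 and 2 had the own RNA in Cy5, and replicates 3 and 4 had it in Cy3. The samples are further labelled as an ES cell line, and the protocols speak of organs and of a pool of control animals, neither of which matches a progenitor line. They state neither the tamoxifen dose nor a receptor that would make these cells respond, nor whether replicates came from separate cultures. P-values below therefore measure only the spread between these arrays, which may be technical.

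Each value is the deposited log ratio after centring the array on its median, read as log2 of own RNA over reference. No source used here gives the base, the numerator or the normalization. Fold sizes hold only for base 2, and lower or higher describe the own RNA on the assumption that it is the numerator. A total RNA sample cannot tell fewer cells of a type apart from less RNA per cell. The spots of a treated array had an SD of 0.619 to 0.642, and those of a time course array one of 0.235 to 0.360, and precision is limited by how many arrays there were. Treated replicates 1 to 4 had a value on 19658 to 19841 of 20205 probes, and the time course arrays on 20088 to 20158.

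A pair of arrays is in doubt. Every array carries 1 repeated extreme value, and its sign follows the dye label on 18 arrays. The exception is 7 h replicate 4, where it is 16.3 although the own RNA was labelled with Cy3. Replicate 3 at 23 h had a deposited median of 0.233, while the other medians lay between -0.012 and 0.024, and it correlated at -0.09 with replicate 4 of its group over all probes. At 7 h, replicates 3 and 4 correlated at -0.15, and replicate 4 correlated at 0.056 and 0.032 with replicates 1 and 2. The other pairs of the same dye within a group correlated at 0.064 to 0.33. Pairs of opposite dye hardly correlated in any group, at -0.16 to 0.056. Results that these arrays moved most are given with and without them. Without them n = 3 at 7 h and n = 2 at 23 h. The doubt rests partly on low agreement with the group, so leaving them out can by itself narrow the spread and add calls.

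BNIP3 and BNIP3L, also called NIX, are related proteins of the outer mitochondrial membrane that bind the autophagosome protein LC3 and so mark mitochondria for mitophagy, the degradation of mitochondria by autophagy. BNIP3L is known in the mouse for clearing mitochondria from maturing red cells. FAM162A is a mitochondrial protein linked to cell death under hypoxia, and NDRG1 is a cytoplasmic protein of the N-myc downstream-regulated family that is raised by hypoxia and other stresses. Low oxygen stabilises the hypoxia-inducible factor HIF, which binds the core letters ACGTG or GCGTG and is known to raise transcription of genes such as these.

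Each gene was measured by 1 probe. In RefSeq (GRCm38.p6) Bnip3 lies on chromosome 7 from 138890836 to 138909506, Bnip3l on chromosome 14 from 66985238 to 67008877, Ndrg1 on chromosome 15 from 66929318 to 66969641 and Fam162a on chromosome 16 from 36043844 to 36071561. Where in the transcript a probe binds was not used here. The RefSeq promoter table (300 bases each) held 2 of the 4 genes, Bnip3 and Fam162a, and the 250 bases before the start of each are shown because they hold every match to the HIF core letters in the window. Both are on the minus strand, written 5′ to 3′ of the gene, with the searched letters ACGTG and GCGTG, on either strand, in capitals.

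Bnip3, chr7:138909507-138909756, minus strand: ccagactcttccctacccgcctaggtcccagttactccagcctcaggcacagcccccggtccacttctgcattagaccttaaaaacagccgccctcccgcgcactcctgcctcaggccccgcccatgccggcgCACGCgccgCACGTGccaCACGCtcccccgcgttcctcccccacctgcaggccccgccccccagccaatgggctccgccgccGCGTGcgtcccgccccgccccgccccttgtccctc
Fam162a, chr16:36071562-36071811, minus strand: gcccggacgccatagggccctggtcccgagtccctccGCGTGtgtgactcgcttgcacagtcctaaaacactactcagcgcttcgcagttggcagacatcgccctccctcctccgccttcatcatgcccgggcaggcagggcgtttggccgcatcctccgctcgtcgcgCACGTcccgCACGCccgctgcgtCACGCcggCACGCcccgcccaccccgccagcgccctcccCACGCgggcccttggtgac

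The Bnip3 stretch held 5 matches, at 117, 108, 107, 99 and 35 bases before the start, of which the matches at 108 and 107 overlap on opposite strands in the letters CACGTG. The Fam162a stretch held 6, at 213, 81, 72, 58, 50 and 19 bases before the start. Of the 32851 promoters in the table, 43.8% held at least 1 match, 1.66% held at least as many as Bnip3 and 0.694% at least as many as Fam162a. A match is a description of these letters, not of a site in use.

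Bnip3 was low in treated cells and at 3 h and nearer 0 afterwards. In treated cells it stood at -0.94, -1.18, -1.97 and -1.43 on replicates 1 to 4. All 4 arrays lay below 0, with a mean of -1.38 ± 0.44 (SD, n = 4; SE 0.22 in the fit), which is 2.61-fold lower than in non-treated cells if the base is 2. It was the 23rd lowest of the 15915 features with enough values.

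At 3 h Bnip3 stood at -1.09, -1.01, -1.74 and -1.69 on replicates 1 to 4, a mean of -1.38 ± 0.38 (SD, n = 4), the 3rd lowest of 16108 features. At 7 h it stood at 0.12, -0.32, -1.005 and 0.97 on replicates 1 to 4. The arrays at 7 h were spread on both sides of 0, with a mean of -0.06 ± 0.83 (SD, n = 4), or -0.40 ± 0.56 (SD, n = 3) without replicate 4. The lowest of them, -1.005, was close to the highest at 3 h, -1.012.

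At 12 h Bnip3 stood at 0.16, 0.16, -0.62 and -0.87 on replicates 1 to 4 (mean -0.29 ± 0.53, SD, n = 4). The Cy5 arrays at 12 h lay above 0 and the Cy3 arrays below it. At 23 h it stood at -0.14, -0.23 and -0.36 on replicates 1, 3 and 4 (mean -0.25 ± 0.11, SD, n = 3), all slightly below 0. The 3 h values did not overlap with those of any later time, though barely so for 7 h, while the values at 7 h, 12 h and 23 h overlapped. The share of all features that separate in this way was not counted, here or for the genes below. The 4 genes were selected on these values.

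Bnip3l, the close relative of Bnip3, followed a different course. In treated cells it stood at -0.43, -0.75, -0.17 and 0.20 on replicates 1 to 4 (mean -0.29 ± 0.40, SD, n = 4; SE 0.28), below 0 on 3 of 4 arrays. At 3 h it stood at 0.91, 1.54, 0.27 and -0.58 on replicates 1 to 4 (mean 0.54 ± 0.91, SD, n = 4). The 3 h arrays lay on both sides of 0, and those with own RNA in Cy5 were the higher ones.

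At 7 h Bnip3l stood at 0.15, -0.11, 0.03 and -1.84 on replicates 1 to 4. Replicate 4, an array in doubt, stood far below the others, and without it the mean was 0.024 ± 0.13 (SD, n = 3), against -0.44 ± 0.94 (SD, n = 4) with it. At 12 h it stood at 0.66, 0.28, -0.53 and -0.17 on replicates 1 to 4 (mean 0.06 ± 0.52, SD, n = 4). At 23 h it stood at 1.38, 0.50 and 0.82 on replicates 1, 3 and 4, above 0 on all 3 arrays. The 23 h mean of 0.90 ± 0.44 (SD, n = 3) was the highest of its 5 group means, and the fitted value of 1.01 (SE 0.33) was the 29th highest of 16116 features. The 23 h arrays did not overlap with those at 7 h but overlapped with those at 3 h and 12 h.

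Fam162a, the hypoxia-linked mitochondrial gene, was low and tightly grouped in treated cells. It stood at -0.73, -0.61, -0.85 and -0.73 on replicates 1 to 4 (mean -0.73 ± 0.098, SD, n = 4; SE 0.18), which is 1.66-fold lower than in non-treated cells. At 3 h it stood at -0.58, -0.54, -1.19 and -0.54 on replicates 1 to 4 (mean -0.71 ± 0.32, SD, n = 4), with 3 arrays close together and replicate 3 below them. At 7 h it stood at -0.61, -0.88, -0.71 and 0.63 on replicates 1 to 4. Without replicate 4 the 7 h mean was -0.73 ± 0.13 (SD, n = 3), almost the value at 3 h, against -0.39 ± 0.69 (SD, n = 4) with it.

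Later Fam162a came near 0. At 12 h it stood at -0.20, 0.008, -0.40 and -0.38 on replicates 1 to 4 (mean -0.24 ± 0.19, SD, n = 4), and at 23 h at 0.25, -0.06 and 0.11 on replicates 1, 3 and 4 (mean 0.10 ± 0.15, SD, n = 3). Neither the 12 h nor the 23 h arrays overlapped with those at 3 h, while they overlapped with each other.

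Ndrg1, the stress-responsive gene, was low early on and, without the 7 h array in doubt, still low at 7 h. In treated cells it stood at -0.64, -1.13, -1.49 and -1.52 on replicates 1 to 4 (fitted -1.19, SD 0.41, SE 0.27, n = 4), 2.29-fold lower than in non-treated cells, the 46th lowest of 15915 features. At 3 h it stood at -1.20, -0.86, -1.29 and -1.25 on replicates 1 to 4 (mean -1.15 ± 0.20, SD, n = 4), the 9th lowest of 16108 features. Every treated and 3 h array lay below 0.

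At 7 h Ndrg1 stood at -0.90, -1.22, -1.40 and 1.0 on replicates 1 to 4. Without replicate 4 the mean was -1.17 ± 0.25 (SD, n = 3) and its arrays overlapped with those at 3 h; with it the mean was -0.63 ± 1.11 (SD, n = 4). At 12 h it stood at -0.26, -0.13, -0.55 and -0.79 on replicates 1 to 4 (mean -0.43 ± 0.30, SD, n = 4), each above the highest array at 3 h. At 23 h it stood at 0.03, -0.01 and -0.13 on replicates 1, 3 and 4 (mean -0.039 ± 0.084, SD, n = 3), all close to 0.

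**Figure D1:**
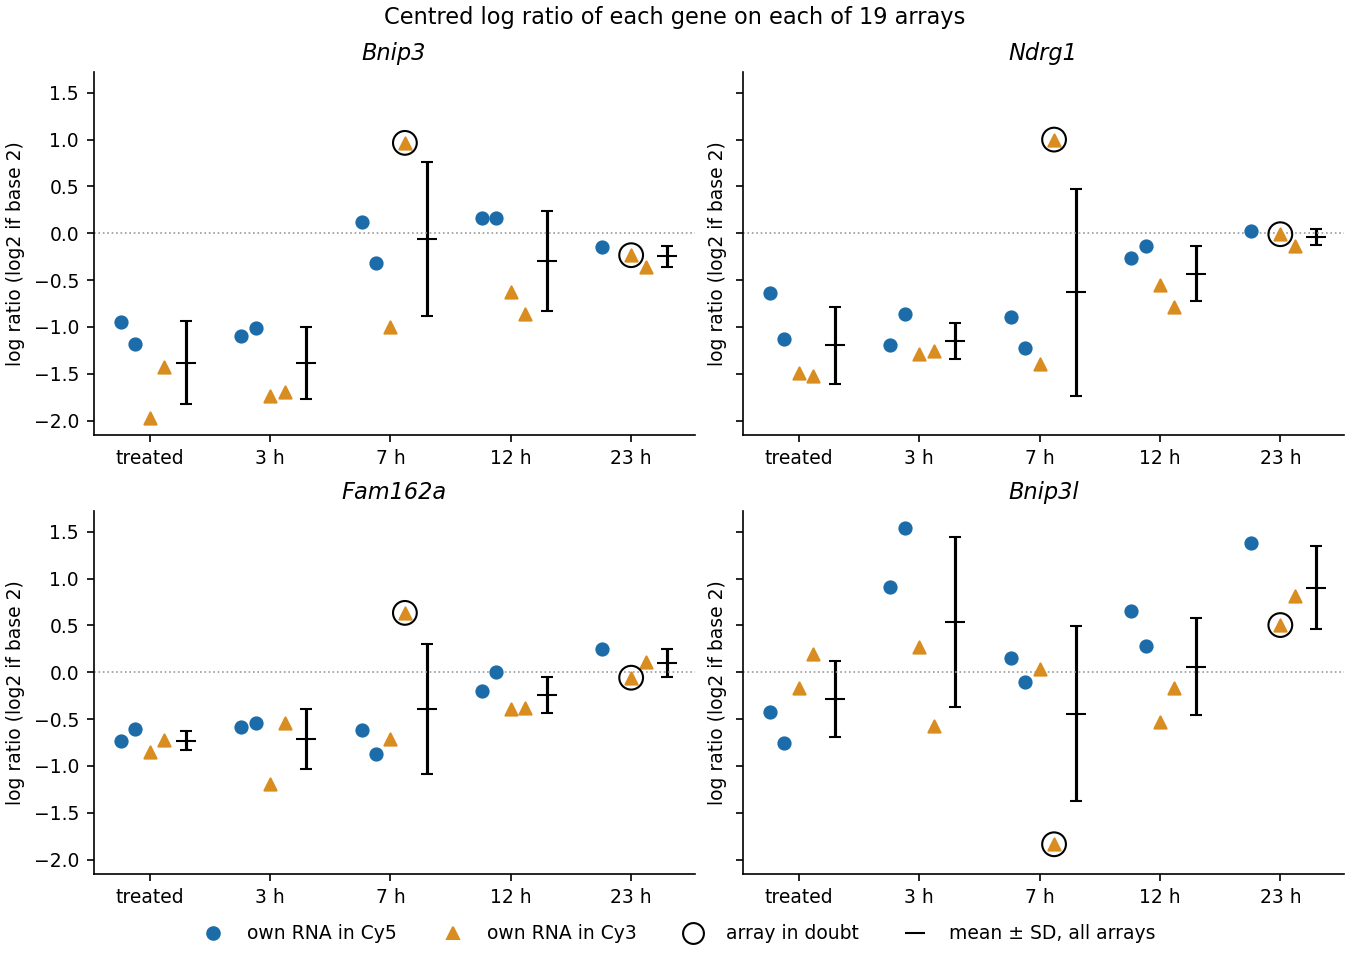
Centred log ratio (log2 if the base is 2) of Bnip3, Ndrg1, Fam162a and Bnip3l on each array, by group, with circles for own RNA in Cy5, triangles for own RNA in Cy3, rings around 7 h replicate 4 and 23 h replicate 3, and bars for the mean ± SD of all arrays of a group. Bnip3, Ndrg1 and Fam162a lie below 0 on every treated and 3 h array. The ringed 7 h array is the highest 7 h array for Bnip3, Ndrg1 and Fam162a (0.97, 1.0 and 0.63) and the lowest for Bnip3l (-1.84).

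Ordered by group mean, Bnip3 was lowest at 3 h (-1.38) and in treated cells (-1.38), then came 12 h (-0.29), 23 h (-0.25) and 7 h (-0.06), and the last 3 lay within 1 SD of each other. For Ndrg1 the order was treated cells (-1.19), 3 h (-1.15), 7 h (-0.63), 12 h (-0.43) and 23 h (-0.04), and for Fam162a it was the same, at -0.73, -0.71, -0.39, -0.24 and 0.10. For Bnip3l the order was 7 h (-0.44), treated cells (-0.29), 12 h (0.06), 3 h (0.54) and 23 h (0.90). The places of 7 h rest on replicate 4, the array in doubt. With both arrays in doubt left out, 7 h stood at -0.40 for Bnip3, next above 3 h and treated cells, and at -1.17 for Ndrg1, between treated cells and 3 h. It then stood at -0.732 for Fam162a, lowest of its 5 groups by a margin far below the SD, and at 0.024 for Bnip3l, between treated cells and 12 h. Bnip3l at 23 h then stood at 1.10 ± 0.40 (SD, n = 2). With the sign of 7 h replicate 4 turned instead, Bnip3l at 7 h stood at 0.48, between 12 h and 3 h. With all arrays, for Ndrg1, Fam162a and Bnip3l, neighbours in the order differed by less than the larger SD of the pair, except for 12 h and 23 h of Ndrg1 and of Fam162a. Treated cells and the time course had different references, so their places in 1 order are not a comparison of levels.

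The differences from 3 h within the time course put sizes on this course. Bnip3 was higher than at 3 h by 1.32 at 7 h (SE 0.31), 1.09 at 12 h (SE 0.31) and 1.22 at 23 h (SE 0.34). Ndrg1 was higher by 0.52 at 7 h (SE 0.39), 0.72 at 12 h (SE 0.39) and 1.13 at 23 h (SE 0.42), and Fam162a by 0.32 (SE 0.26), 0.47 (SE 0.26) and 0.82 (SE 0.28). Bnip3l differed from 3 h by -0.98 at 7 h (SE 0.40), -0.48 at 12 h (SE 0.40) and 0.47 at 23 h (SE 0.43).

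Without both arrays in doubt the differences between 7 h and 3 h changed most. They were then 0.86 for Bnip3 (SE 0.16), -0.09 for Ndrg1 (SE 0.14), -0.05 for Fam162a (SE 0.14) and -0.59 for Bnip3l (SE 0.38). At 23 h the differences from 3 h were then 1.13 for Bnip3 (SE 0.18), 1.10 for Ndrg1 (SE 0.16), 0.89 for Fam162a (SE 0.16) and 0.56 for Bnip3l (SE 0.42). Measured within an array, Bnip3 minus Ndrg1 averaged 0.77 ± 0.33 (SD, n = 3) at 7 h without replicate 4, above 0 on 3 of 3 arrays, and -0.23 ± 0.26 (SD, n = 4) at 3 h, above 0 on 1 of 4. With replicate 4 it was 0.57 ± 0.48 (SD, n = 4) at 7 h, above 0 on 3 of 4. Bnip3 minus Fam162a was less uniform at 7 h, at 0.33 ± 0.55 (SD, n = 3) without replicate 4, above 0 on 2 of 3. At 3 h Bnip3 minus Fam162a was -0.67 ± 0.32 (SD, n = 4), above 0 on 0 of 4. Different probes differ in response, so these differences of log ratios compare courses and not levels of RNA.

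**Figure D2:**
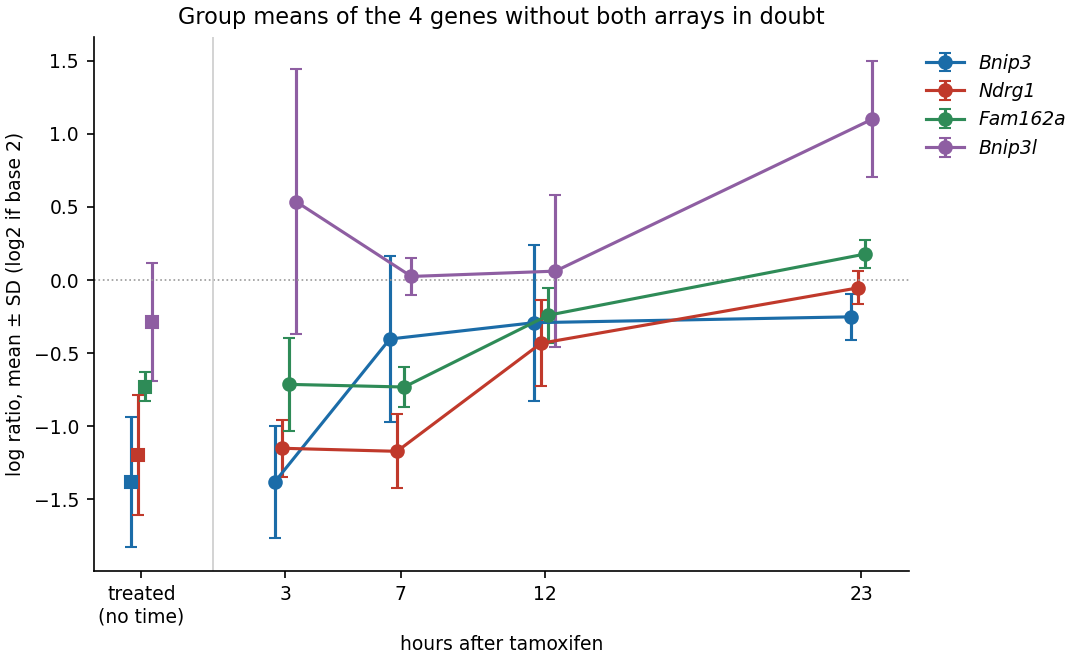
Mean ± SD of the centred log ratio (log2 if the base is 2) of each gene without 7 h replicate 4 and 23 h replicate 3, against hours after tamoxifen, with treated cells of no stated time as squares at the left. At 7 h Bnip3 lies at -0.40 while Ndrg1 and Fam162a lie at -1.17 and -0.73, near their 3 h values, and all 3 lie near 0 at 23 h.

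The fit gave each gene a dye term. On average over the groups, each array with own RNA in Cy5 lay 0.24 above the group level for Bnip3 (SE 0.10) and 0.32 for Bnip3l (SE 0.13), against 0.058 for Ndrg1 (SE 0.13) and 0.017 for Fam162a (SE 0.084), and Cy3 arrays lay as far below. With both arrays in doubt left out, these values were 0.35 for Bnip3 (SE 0.051), 0.22 for Bnip3l (SE 0.12), 0.20 for Ndrg1 (SE 0.046) and 0.092 for Fam162a (SE 0.044). In treated cells Bnip3 averaged -1.06 on the Cy5 arrays and -1.70 on the Cy3 arrays, both below 0, while Bnip3l ran the other way, at -0.59 on the Cy5 arrays and 0.016 on the Cy3 arrays. The groups of 4 hold both orientations equally. If the deposited values were instead Cy5 over Cy3 on every array, the Cy3 values would change sign, and the treated means would be 0.32 for Bnip3, 0.31 for Ndrg1, 0.06 for Fam162a and -0.30 for Bnip3l. At 3 h they would then be 0.33, 0.12 and 0.15 for Bnip3, Ndrg1 and Fam162a, and 0.69 for Bnip3l. The direction of Bnip3, Ndrg1 and Fam162a in treated cells and at 3 h thus rests on the deposited signs. That of Bnip3l was the same under both readings in these groups, but not at every time. Its treated value was close in size to its SE, at -0.29 (SE 0.28) as deposited and -0.30 (SE 0.35) with the Cy3 signs changed. At 7 h Bnip3l stood at 0.46 with the Cy3 signs changed, against -0.44 as deposited. Its fitted 23 h value was then 0.059 (SE 0.41), against 1.01 (SE 0.33) as deposited.

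Over the 19 arrays Fam162a and Ndrg1 varied together most closely, with Pearson's r of 0.92 and Spearman's rho of 0.858. For Bnip3 and Ndrg1 they were 0.839 and 0.809, and for Bnip3 and Fam162a 0.771 and 0.665. Bnip3l shared little of this: r was -0.0852 with Bnip3, -0.0506 with Fam162a and -0.121 with Ndrg1, and rho was 0.144, 0.219 and 0.167. The points share references, groups and dye orientation, so these are descriptions without a p-value. Without both arrays in doubt, r was 0.87 for Fam162a and Ndrg1, 0.763 for Bnip3 and Ndrg1, and 0.657 for Bnip3 and Fam162a. For Bnip3l it was then 0.321 with Bnip3, 0.433 with Fam162a and 0.399 with Ndrg1.

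**Figure D3:**
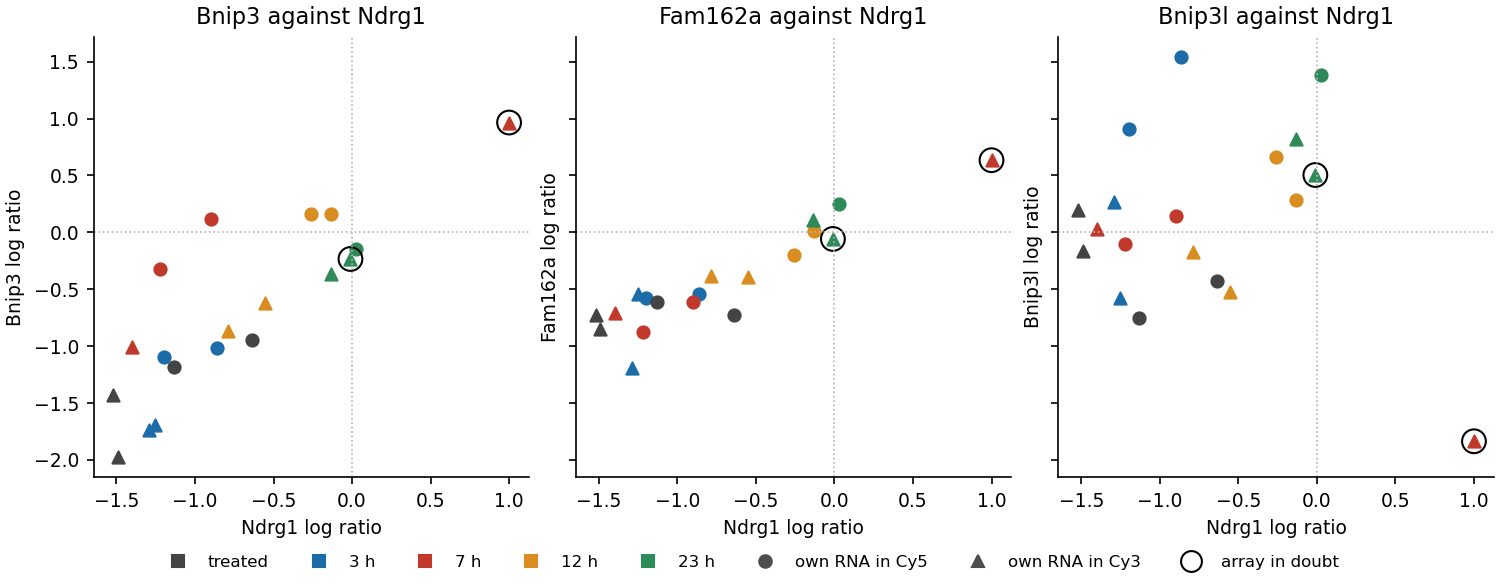
Centred log ratio of Bnip3, Fam162a and Bnip3l (vertical axes) against Ndrg1 (horizontal axis) on the 19 arrays, coloured by group, with circles for own RNA in Cy5, triangles for own RNA in Cy3 and rings around the arrays in doubt. Fam162a follows Ndrg1 (r = 0.92), and Bnip3 follows it less closely (r = 0.839). For Bnip3l r with Ndrg1 is -0.121 over all 19 arrays and 0.399 without the arrays in doubt.

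The genes whose values were most like each of the 4 were looked up among 9182 genes with a value on all 19 arrays. For Bnip3 the first was the phosphoglucomutase Pgm1 (r = 0.934, rho = 0.949), which is on the glycolysis and glucose uptake list used below. Then came the glycolysis enzymes Pgam1 (r = 0.928, rho = 0.91) and Tpi1 (r = 0.908, rho = 0.821), the ribosomal stalk protein Rplp0 (r = 0.893) and Mphosph6 (r = 0.883). Pgm1 had group means of -0.67 in treated cells, -0.71 at 3 h, 0.11 at 7 h, -0.05 at 12 h and -0.11 at 23 h. The 7 h means of both genes include the array in doubt, without which Bnip3 stood at -0.40. For Ndrg1 they were Fam162a (r = 0.92), the selenium-binding protein Selenbp1 (r = 0.907, rho = 0.877), the cell cycle inhibitor Cdkn1a (r = 0.89, rho = 0.928), Selenbp2 (r = 0.867) and Mphosph6 (r = 0.863). Selenbp1 and Selenbp2 are near-identical in sequence, so their probes may not tell them apart.

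For Fam162a the most similar were Ndrg1, Selenbp2 (r = 0.829), Sertad1 (r = 0.82), Selenbp1 (r = 0.814) and the aldolase Aldoa (r = 0.801). For Bnip3l they were Eif2b3, a subunit of a translation initiation factor (r = 0.78), Dmgdh (r = 0.779), the caspase-8 inhibitor Cflar (r = 0.737), Acrv1 (r = 0.736) and Laptm4b (r = 0.701), and 0 of these 5 remained among the top 5 without both arrays in doubt. Without those arrays 3 of the 5 remained for Bnip3, 3 for Ndrg1 and 2 for Fam162a. The mean of the 4 genes was most like Cdkn1a (r = 0.855), Selenbp1 (r = 0.81), Mphosph6 (r = 0.795), the desaturase Scd2 (r = 0.793) and Selenbp2 (r = 0.782).

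Other genes of the pathways were read from lists drawn up with earlier results of these data known, with limma across all features and Benjamini-Hochberg adjustment at 0.05. In treated cells limma called 4.76% of all features, 2.38% below 0 and 2.39% above, and the median feature was at 0.009. Of 11 measured genes of the HIF machinery 4 lay below 0. The 1 of them that was called was the oxygen-sensing prolyl hydroxylase Egln1, which marks HIF for destruction. It stood at -0.70, -0.62, -0.80 and -0.77 on replicates 1 to 4 (fitted -0.72, SE 0.12, limma adjusted p = 0.00713), and the list median was 0.102. Of 17 HIF targets outside glycolysis 10 lay below 0, and the median was -0.207. Called among them were 2, the endoplasmic reticulum oxidase Ero1a at -0.92 (SE 0.21, limma adjusted p = 0.0244) and the collagen cross-linking enzyme Lox at -0.33 (SE 0.074, limma adjusted p = 0.0221).

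Glycolysis and glucose uptake genes lay low in treated cells: 13 of 15 were below 0, against 47.9% of all features, with a list median of -0.382. Of the 15, limma called 4, all below 0. This direction rests on the deposited signs, since with the Cy3 signs changed 5 of 15 were below 0 and the median was 0.14. The glucose transporter Slc2a3 fell on every array, at -0.97, -0.47, -1.14 and -1.34 (fitted -0.98, SE 0.18, limma adjusted p = 0.00893). Hexokinase Hk2 stood at -0.71 (SE 0.17, limma adjusted p = 0.027), Pgm1 at -0.67 (SE 0.15, limma adjusted p = 0.0205) and the mutase Pgam1 at -0.45 (SE 0.10, limma adjusted p = 0.0253).

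Genes of the mitophagy and death machinery around Bnip3 and Bnip3l were called in both directions in treated cells. Of 13 mitophagy receptors and adaptors limma called 1 below 0 and 1 above, with a median of 0.0423. Below 0 was the kinase Tbk1, which acts on autophagy adaptors, at -0.87 (SE 0.15, limma adjusted p = 0.00734). Above 0 was the mitochondrial ubiquitin ligase Mul1 at 0.39 (SE 0.086, limma adjusted p = 0.0214). Tbk1 ranged from -1.70 on replicate 4 to -0.22 on replicate 3. Of 20 autophagosome genes limma called 0, with a median of -0.0501. An unadjusted limma p under 0.05 was reached by 3 of the 20, beside 3500 of all 15915 features.

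Of 12 genes of the Bcl2 family and mitochondrial death, limma called 2 below 0 and 1 above, with a median of 0.0263. The survival factors Mcl1 and Bcl2 fell by 0.42 (SE 0.084, limma adjusted p = 0.0139) and 0.35 (SE 0.080, limma adjusted p = 0.0253), and the death agonist Bid stood at 0.375 (SE 0.10, limma adjusted p = 0.0496). Bcl2 was at -0.009 and -0.07 on the Cy5 arrays and at -0.60 and -0.71 on the Cy3 arrays. Of 8 other Ndrg genes and regulators of Ndrg1 limma called 0, with a median of -0.139. An unadjusted limma p under 0.05 was reached by 2 of the 8, beside 3500 of all 15915 features.

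The 12 calls in these lists rest on a spread pooled with the quieter time course arrays. With array weights, or with the treated arrays fitted apart, limma called 0 of the list genes. With the Cy3 signs changed it called 6 other list genes, and 0 of the 12 kept the call. Of the 12 genes, 4 kept the call without each treated array in turn, namely Egln1, Slc2a3, Tbk1 and Mcl1, and 8 lost it without at least 1. Without replicate 1 these were Hk2 and Bid, without replicate 2 Bid, without replicate 3 Bcl2, Ero1a, Hk2, Lox, Mul1 and Pgam1 (limma adjusted p = 0.0504 to 0.0813), and without replicate 4 Bcl2, Bid, Hk2, Mul1, Pgam1 and Pgm1 (limma adjusted p = 0.0514 to 0.0809). Bid stood highest in adjusted p, at 0.135 without replicate 1. Without both arrays in doubt, which bear on the treated comparison through the pooled variance and the dye coefficient, limma called 8 of 15 glycolysis genes and 5 of 17 other HIF targets, all below 0, and 4.44% of all features.

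In the time course limma called 0 list genes at any time. Over all features it called 0.0% at 3 h (865 at an unadjusted p under 0.05), 0.0% at 7 h (542), 0.0186% at 12 h (565; 0.00622% below 0 and 0.0124% above) and 0.0% at 23 h (274). At 3 h, 14 of 15 glycolysis genes lay below 0 with a median of -0.317, against 5 of 15 and a median of 0.0879 with the Cy3 signs changed. Pgm1 stood at -0.65, -0.16, -1.03 and -0.99 on replicates 1 to 4 and Slc2a3 at -0.42, -0.47, -0.43 and -1.03. The glycolysis median was -0.031 at 7 h, -0.123 at 12 h and -0.047 at 23 h. It was -0.205 at 7 h without both arrays in doubt, with 13 of 15 genes below 0, and -0.0902 at 23 h. The 7 h arrays had medians of -0.097, -0.162, -0.335 and 0.441 on replicates 1 to 4, the last being the array in doubt.

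The other HIF targets had medians of -0.0825 at 3 h, -0.0657 at 7 h, -0.039 at 12 h and -0.0631 at 23 h, and without both arrays in doubt -0.087 at 7 h and -0.104 at 23 h. Ddit4, an inhibitor of mTOR signalling that is raised by hypoxia, stood at -0.57, -0.32, -0.40 and -0.58 at 3 h and at -0.44, -0.73, -0.87 and 0.44 at 7 h. Without both arrays in doubt limma called 3 genes of the glycolysis list at 3 h, namely Pgm1 at -0.71, Aldoa at -0.52 and Pgam1 at -0.39 (limma adjusted p = 0.0142, 0.0357 and 0.036), beside 0.112% of all features. At 7 h it then called 0.217% of all features, among them Aldoa at -0.57, Ddit4 at -0.72 and the transcriptional repressor Bhlhe40 at -0.56 (limma adjusted p = 0.0351, 0.0253 and 0.0167). The list median of the HIF machinery lay between -0.0845 at 3 h and 0.061 at 12 h, that of mitophagy between -0.0369 at 12 h and -0.0107 at 7 h, and that of autophagosome genes between -0.0297 at 12 h and 0.0514 at 3 h. That of the Bcl2 family lay between -0.026 at 12 h and 0.00197 at 23 h, and that of the Ndrg list between -0.07 at 3 h and 0.0111 at 12 h. The Ndrg list without both arrays in doubt stood at -0.119 at 7 h and -0.084 at 23 h, the HIF machinery at -0.0198 and -0.0085, mitophagy at -0.0347 and -0.0405, autophagosome genes at 0.0361 and 0.0075, and the Bcl2 family at -0.00263 and 0.014.

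For 23 h minus 3 h, 14 of 15 glycolysis genes lay above 0, with a list median of 0.267, beside 1.22 for Bnip3, 1.13 for Ndrg1 and 0.82 for Fam162a. With the Cy3 signs changed 13 of 15 lay below 0 and the median was -0.152, and without both arrays in doubt the median was 0.236. In that comparison 0.0% of 16087 features and 0 list genes were called by limma, and 410 features had an unadjusted p under 0.05. Pgm1 differed by 0.66 (SE 0.23) and Slc2a3 by 0.48 (SE 0.27).

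**Figure D4:**
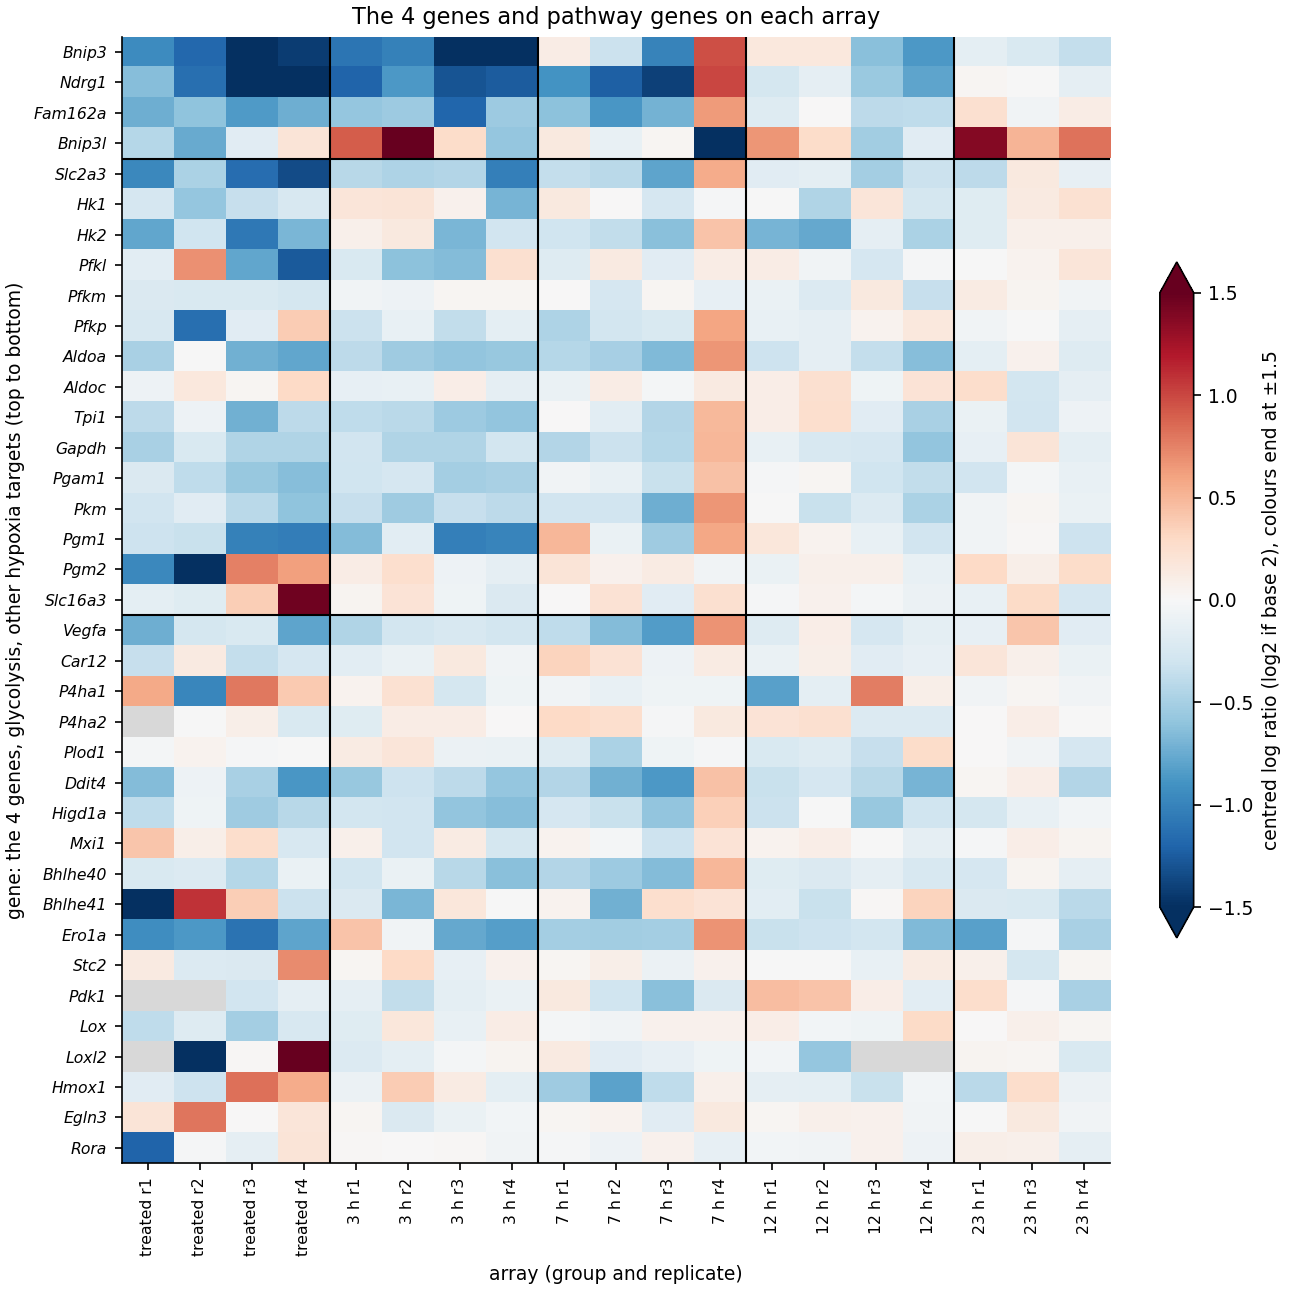
Centred log ratio (log2 if the base is 2; colours end at 1.5 on either side of 0, grey where there was no value) on the 19 arrays for the 4 genes (top), glycolysis genes (middle) and other HIF targets (bottom). Treated and 3 h columns are mostly blue for Bnip3, Ndrg1, Fam162a and many glycolysis genes, and the column of 7 h replicate 4 is mostly red, with a glycolysis median of 0.441.

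Cell type markers were read on the same arrays. Of 6 progenitor markers 0 were called in treated cells or at any time, with list medians of 0.0453 in treated cells and -0.0239 to 0.0183 in the time course, and Csf2rb, the shared beta chain of the interleukin-3 receptor, was the furthest from 0 in treated cells at -0.37. When both arrays in doubt were left out, limma called Csf2rb in treated cells (-0.37, limma adjusted p = 0.00942) and the transcription factor Tal1 at 7 h (0.35, limma adjusted p = 0.0351). Of 8 granulocyte and macrophage markers 7 lay below 0 in treated cells. Of these limma called 1, Cd68 at -0.34 (limma adjusted p = 0.0494, and up to 0.144 without 1 of replicates 1, 3 and 4). The list medians were -0.253 in treated cells, -0.13 at 3 h, -0.148 at 7 h, -0.286 at 12 h and -0.317 at 23 h. The medians without both arrays in doubt were -0.317 at 7 h and -0.925 at 23 h, and limma called 3 of the 8 in treated cells, 0 at 3 h, 1 at 7 h, 3 at 12 h and 5 at 23 h, all below 0. Of all features the same fit called 4.44% in treated cells, 0.112% at 3 h, 0.217% at 7 h, 0.162% at 12 h and 0.168% at 23 h. In that fit 6 of the 8 markers lay below 0 at 23 h. With the Cy3 signs changed and all arrays kept, 2 of 8 lay below 0 in treated cells, with a median of 0.0624 and 1 called above 0. At 23 h 7 of 8 then lay below 0, with a median of -0.354 and 0 called. The neutrophil granule gene Ltf stood at -1.18, 0.97 and -1.34 on replicates 1, 3 and 4 at 23 h, the time at which Bnip3l was highest. The 5 called at 23 h without both arrays in doubt, with n = 2, included Ltf at -1.26 and Mpo at -0.91 (limma adjusted p = 0.000182 and 0.000402). The SE of Ltf was 0.31 with these arrays and 0.11 without them. Erythroid markers, 4 of which were measured, had medians of -0.199 in treated cells and -0.0948 at 23 h, mast cell markers (3) -0.086 and -0.107, and pluripotency markers (6) -0.0224 and 0.0516, with 0 called in each. At 12 h, without both arrays in doubt, limma called 1 mast cell marker, Mcpt8 at -0.61 (limma adjusted p = 0.0184). Whether a change in the mix of cells had a part in the values of the 4 genes was not tested.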

How the data were processed

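Expression was measured on 19 arrays of the 2-colour type with total RNA reverse transcribed and dye-coupled indirectly, per the labels' protocols. The authors deposited 1 log ratio per spot, taken here as log2 of own RNA over reference. No source used here gives the base, the numerator or the normalization. No spot intensities were used. Arrays were centred on their median. The extreme value repeated on 8 to 29 spots of each array (beyond 15 on either side of 0) was set to missing. Probes of 1 gene were averaged, giving 16148 features, of which 9834 are genes with a single symbol in the platform table; 6309 of 20205 probes had no symbol and 5 had several.

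Groups were fitted with limma 3.58.1 (R 4.3.3; lmFit, eBayes) over all arrays with a term for the dye of the own RNA, and tested against 0 with Benjamini-Hochberg adjustment over all features (threshold 0.05). A feature needed 3 values in a group of 4 arrays and 2 at 23 h. On simulated data with known changes put in at 3 h, mean estimates lay near those changes. The simulated noise was normal, with the same SD for every feature of a group, no dye effect and no array in doubt. It therefore checked the estimates and not how the calls behave on the real arrays. Tables were summarised with Python 3.11.15, numpy 2.4.6 and pandas 2.3.3. The 4 genes and all lists were chosen with earlier results of these data known, so the 4 genes carry no p-value. Named besides them are up to 6 called genes per list and comparison, or the 2 furthest from 0, and the 5 genes of highest Pearson's r with each of the 4. Not every gene that this rule allows is printed. At most 0.289% of the values were equal between 2 arrays. Same-numbered arrays of different groups correlated at 0.0294 on average (-0.108 to 0.194 over 36 pairs) after removing group means, against 0.0437 for other numbers of the same dye, so replicate numbers were not taken to pair arrays. Alternatives changed the signs of the Cy3 arrays, the dye term, a replicate block, array weights, centring, scaling, quantile normalization, the extreme values, the probe averaging, the filter and the arrays used. Turning the sign of 7 h replicate 4, or of both arrays in doubt, was added after the data were seen. The arrays in doubt were themselves picked from these data.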

Additional observations from a re-analysis of the deposited data

Results flagged for a closer look

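Single arrays stood far from the others of their group in 2 of the 16 sets of 4 arrays formed by the 4 genes and the 4 groups of that size. For Bnip3l at 7 h, replicate 4 stood at -1.84 while the other 3 arrays lay between -0.11 and 0.15. The gap to its nearest neighbour was 0.872 of the whole range of the group. Dixon's value of 0.829 served here only as the limit for flagging a gap. On this array the repeated extreme value runs against the dye label. For Fam162a at 3 h, replicate 3 stood at -1.19 while the other 3 arrays lay between -0.58 and -0.54, and the gap was 0.943 of the range. Without that replicate Fam162a at 3 h stood at -0.55, against -0.71 with it. Among 4 values drawn from 1 normal distribution a gap above the limit of 0.829 arises in about 1 of 20 groups. The 4 genes were selected on these values, so the flags are a description and not a test.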

How the results depend on the processing

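The 32 values of the 4 genes (5 groups and 3 differences from 3 h each) moved by less than the SD between arrays without the dye term, with array weights, with treated and time course arrays fitted apart, without centring, with the extreme values kept, with each probe by itself and with values on every array only. Leaving out both arrays in doubt moved the fitted 7 h values to -0.52 for Bnip3, -0.050 for Bnip3l, -0.76 for Fam162a and -1.24 for Ndrg1, against -0.06, -0.44, -0.39 and -0.63 with them. The labels give the groups the same replicate numbers; with a replicate block in place of the dye term the fit gave -1.38 for Bnip3 in treated cells and -0.18 at 23 h, called 606 features in treated cells, and moved none of these values or call counts beyond the same limits. The cause of the shifts below was not tested.

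With the signs of the Cy3 arrays changed, Bnip3 stood at 0.32 in treated cells, 0.33 at 3 h and 0.45 at 12 h, and its differences from 3 h at -0.37 (7 h), 0.12 (12 h) and -0.41 (23 h). Fam162a stood at 0.06 in treated cells, 0.15 at 3 h, 0.15 at 12 h and -0.077 at 23 h, with differences of -0.51 (7 h), -0.006 (12 h) and -0.23 (23 h). Ndrg1 stood at 0.31 in treated cells, 0.12 at 3 h, 0.24 at 12 h and -0.19 at 23 h, with differences of -0.55 (7 h), 0.12 (12 h) and -0.31 (23 h). Bnip3l stood at 0.46 at 7 h, against -0.44, and at 0.059 at 23 h, with a difference of -0.63 at 23 h. With arrays scaled to the same spread, treated values were -0.86 for Bnip3, -0.45 for Fam162a and -0.74 for Ndrg1, and Ndrg1 stood at -1.39 at 3 h with a 23 h difference of 1.37. With quantile normalization they were -0.90 for Bnip3, -0.48 for Fam162a, -1.50 for Ndrg1 at 3 h and 1.49 for its 23 h difference. With the signs of both arrays in doubt turned, Bnip3 at 23 h stood at 0.018. With 7 h replicate 4 turned, Bnip3l at 7 h stood at 0.48.

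Features called in treated cells numbered 758, and 1313 with the Cy3 signs changed, 2 with array weights, 0 with treated arrays fitted apart, 5 with scaling and 3 with quantile normalization. Pathway genes called numbered 12, of which 0 kept the call in these 5 settings, while 6 others were called with the Cy3 signs changed. Pathway genes called numbered 21 with 7 h replicate 4 turned and 23 with both arrays in doubt turned. At 3 h, features called numbered 0, and 3 with array weights, 18 without both arrays in doubt, 17 with 7 h replicate 4 turned and 22 with both turned, and pathway genes 0, and 1, 3, 5 and 5. At 7 h they numbered 0, and 35, 31 and 90 without both, with 7 h replicate 4 turned and with both turned, and pathway genes 0, and 3, 6 and 8. At 12 h they numbered 3, and 30 with array weights, 5 with quantile normalization, 0 with values on every array only, 26 without both and 34 with both turned. At 23 h they numbered 0, and 27 without both and 47 with both turned. For 23 h minus 3 h they numbered 0, and 11 without both, 3 with 7 h replicate 4 turned and 13 with both turned.

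With each array of the same group left out in turn, Bnip3 ranged from -1.45 to -1.26 in treated cells, from -0.52 to 0.19 at 7 h and from -0.25 to -0.033 at 23 h. At 12 h it ranged from -0.37 to -0.17. Bnip3l ranged from -0.58 to -0.0054 in treated cells, from 0.29 to 0.82 at 3 h and from 0.94 to 1.10 at 23 h, and its difference between 23 h and 3 h from 0.17 to 0.70. Features called ranged from 873 to 1456 in treated cells, from 0 to 4 at 7 h, from 3 to 7 at 12 h and from 0 to 1 at 23 h, and pathway genes called in treated cells from 6 to 15. Without 1 time course array, 547 to 758 features were called in treated cells. The unstated numerator of the ratio, groups of 3 or 4 arrays and 1 probe per gene limit what these values can show.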
